A study of Arabidopsis thaliana with 28 samples.

Results

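In closed flower buds of Arabidopsis thaliana, 6 genes were close to silent in both libraries of the Columbia control, Col, and detected in all 6 libraries of 3 mutants, ibm1, ibm1 jmj27 and pds5. They were found among 27416 genes by their level in CPM, the count of a gene per 1000000 counts of its library. A gene was taken as switched on where both Col libraries held at most 0.1 CPM and all 6 mutant libraries at least 0.3 CPM. A gene was taken as switched off where both Col libraries held at least 0.5 CPM and all 6 mutant libraries at most 0.1 CPM, and 0 genes met that rule. AT1G36240, AT1G47400 and AT1G47395 were left out by the rule. AT1G47400 was the 1 gene among them that met a rule, the switched-on one. With it, the switched-on rule took 0.0255% of all genes and the switched-off rule 0%. The members were chosen on the difference between Col and the mutants, so every difference from Col given for them is a description without a test.

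The RNA libraries were poly(A)-selected and made from closed buds, with 2 libraries for each of the 4 genotypes. IBM1 and JMJ27 encode demethylases that remove methyl groups from lysine 9 of histone H3, a mark of silent chromatin, and PDS5 proteins are cofactors of cohesin. The labels name the genotypes but not the alleles, the PDS5 genes that the pds5 line lacks, the age of the plants, or whether replicates came from separate plants. All p-values therefore measure the spread between these libraries, which may be technical. The chi-square per degree of freedom between replicates, over genes, was 2.89 in Col, 2.30 in ibm1, 5.60 in pds5 and 14.4 in ibm1 jmj27. The fit shares 1 estimate of the spread over the genotypes, so the SE of a difference that involves ibm1 jmj27 may be too small. Plants were grown at long or short days, and the labels do not say which library came from which.

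Total counts per library ran from 19490663 to 26038662. A level of 0.1 CPM is therefore at most 1 or 2 counts in a library, 0.3 CPM at least 6 to 8 counts, and 0.5 CPM at least 10 to 14 counts. The switch is thus read from small counts, and the floor of 3 counts over both Col libraries together stood for a gene at 0 there. All 6 floral organ and meristem identity markers were detected in every genotype, and 4 root markers together held at most 0.0877 CPM in any library. The 5 pollen markers summed to 117 to 125 CPM in Col, 39.0 to 40.8 in ibm1, 0.235 to 0.410 in ibm1 jmj27 and 115 to 140 in pds5. ADF7 and RALFL8 were at 0 in ibm1 jmj27. The 5 tapetum markers summed to 542 to 618 CPM in Col and 243 to 550 in the mutants, and 4 light-harvesting and Rubisco genes to 6676 to 6766 CPM in Col and 9688 to 13603 in the mutants. The part of these markers in the members' levels was not tested. In whole buds, fewer cells of a type and less RNA per cell cannot be told apart. The clock gene LHY stood at 2.94 ± 0.127 CPM (SD, n = 2) in Col, 19.6 ± 1.41 in ibm1, 607 ± 12.6 in pds5 and 488 ± 1.44 in ibm1 jmj27, so genotype and clock state cannot be told apart in any difference from Col.

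Only 2 of the 6 genes carry a symbol in the reference table. DFR (AT5G42800, chromosome 5) encodes dihydroflavonol 4-reductase, which turns dihydroflavonols into leucoanthocyanidins and so opens the branch of flavonoid synthesis that leads to anthocyanins and condensed tannins. Early enzymes of that pathway, such as chalcone synthase, serve flavonols and anthocyanins alike. Late enzymes, DFR among them, are switched on in the plant by a complex of a MYB factor, a bHLH factor and the WD40 protein TTG1. CRK38 (AT4G04510, chromosome 4) is a cysteine-rich receptor-like kinase, one of a large family of membrane kinases, many of them in tandem clusters, with members known in defense and oxidative stress. AT2G27420 (chromosome 2), AT5G24880 (chromosome 5), AT3G17520 (chromosome 3) and AT1G52990 (chromosome 1) have locus identifiers alone. The 6 genes lie on 5 chromosomes, none neighbours another, and none overlaps another annotated gene of the reference.

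DFR had 0 and 2 counts in Col, or 0 and 0.0850 CPM. Its level was 0.658 and 0.444 CPM in ibm1 replicates 1 and 2, 5.08 and 4.05 in ibm1 jmj27, and 1.61 and 2.70 in pds5. The 4 genotypes did not overlap, in the order Col, ibm1, pds5 and ibm1 jmj27. Against the 2 counts of Col, the ratio of counts per depth was 12.0 in ibm1 (95% exact interval 2.98 to 105), 46.0 in pds5 (12.4 to 385) and 99.1 in ibm1 jmj27 (27.1 to 823). These intervals cover counting error only, and choosing the gene for its low Col counts can push the ratio up.

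CRK38 had 0 and 1 counts in Col, or 0 and 0.0425 CPM. It reached 0.307 and 0.542 CPM in ibm1, 0.391 and 0.410 in ibm1 jmj27, and 0.653 and 0.409 in pds5. The 3 mutants overlapped, and the first ibm1 library was the member value closest to the threshold of 0.3 CPM. The ratios to Col, which rest on 1 count there, were 18.0 (95% interval 2.84 to 749), 17.2 (2.73 to 714) and 23.0 (3.79 to 942) in ibm1, ibm1 jmj27 and pds5.

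AT2G27420 had 1 and 2 counts in Col, or 0.0513 and 0.0850 CPM, and 1.18 and 1.23 CPM in ibm1. In ibm1 jmj27 it stood at 16.2 and 18.6 CPM and in pds5 at 18.5 and 20.1 CPM. The ibm1 libraries thus lay between Col and the other 2 mutants, which overlapped. Its ratio to Col was 17.3 in ibm1 (95% interval 5.60 to 86.7), 248 in ibm1 jmj27 (84.6 to 1206) and 276 in pds5 (94.2 to 1341). The means of LHY had the same order of genotypes, and whether clock state took part in this gene's level was not tested.

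AT5G24880 had 1 count in each Col library, or 0.0513 and 0.0425 CPM. Its level was 0.746 and 0.936 CPM in ibm1, 0.704 and 0.592 in ibm1 jmj27, and 2.57 and 2.00 in pds5. Both pds5 libraries lay above every other library, while both ibm1 libraries lay above those of ibm1 jmj27. The ratio to Col was 18.0 (95% interval 4.63 to 154) in ibm1, 14.0 (3.57 to 121) in ibm1 jmj27 and 49.4 (13.4 to 413) in pds5.

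AT3G17520 was the 1 member without a count in either Col library. It stood at 0.658 and 1.18 CPM in ibm1, 0.665 and 0.410 in ibm1 jmj27, and 1.46 and 0.614 in pds5. The mutants overlapped. Set against the floor of 3 counts over both Col libraries, its level was 13.0-fold in ibm1, 7.84-fold in ibm1 jmj27 and 15.1-fold in pds5. These ratios leave out counting error in the mutant counts, so they are not lower bounds. Its replicates in pds5, with 38 and 15 counts, differed by more than counting error (ratio 0.420, 95% interval 0.215 to 0.782).

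AT1G52990 had 1 and 0 counts in Col, or 0.0513 and 0 CPM. Its level was 0.526 and 0.394 CPM in ibm1, 0.508 and 0.637 in ibm1 jmj27, and 0.346 and 0.368 in pds5. Both pds5 libraries were the lowest of the 6 mutant libraries. Its ratios to Col rest on 1 count, at 20.0 (95% interval 3.19 to 828) in ibm1, 24.4 (4.03 to 1000.3) in ibm1 jmj27 and 15.3 (2.42 to 639) in pds5. Across the 6 members and 3 mutants, the interval of the replicate ratio held 1 in 15 of 18 pairs. The 3 others were AT3G17520 and DFR in pds5 and AT2G27420 in ibm1 jmj27.

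**Figure D1:**
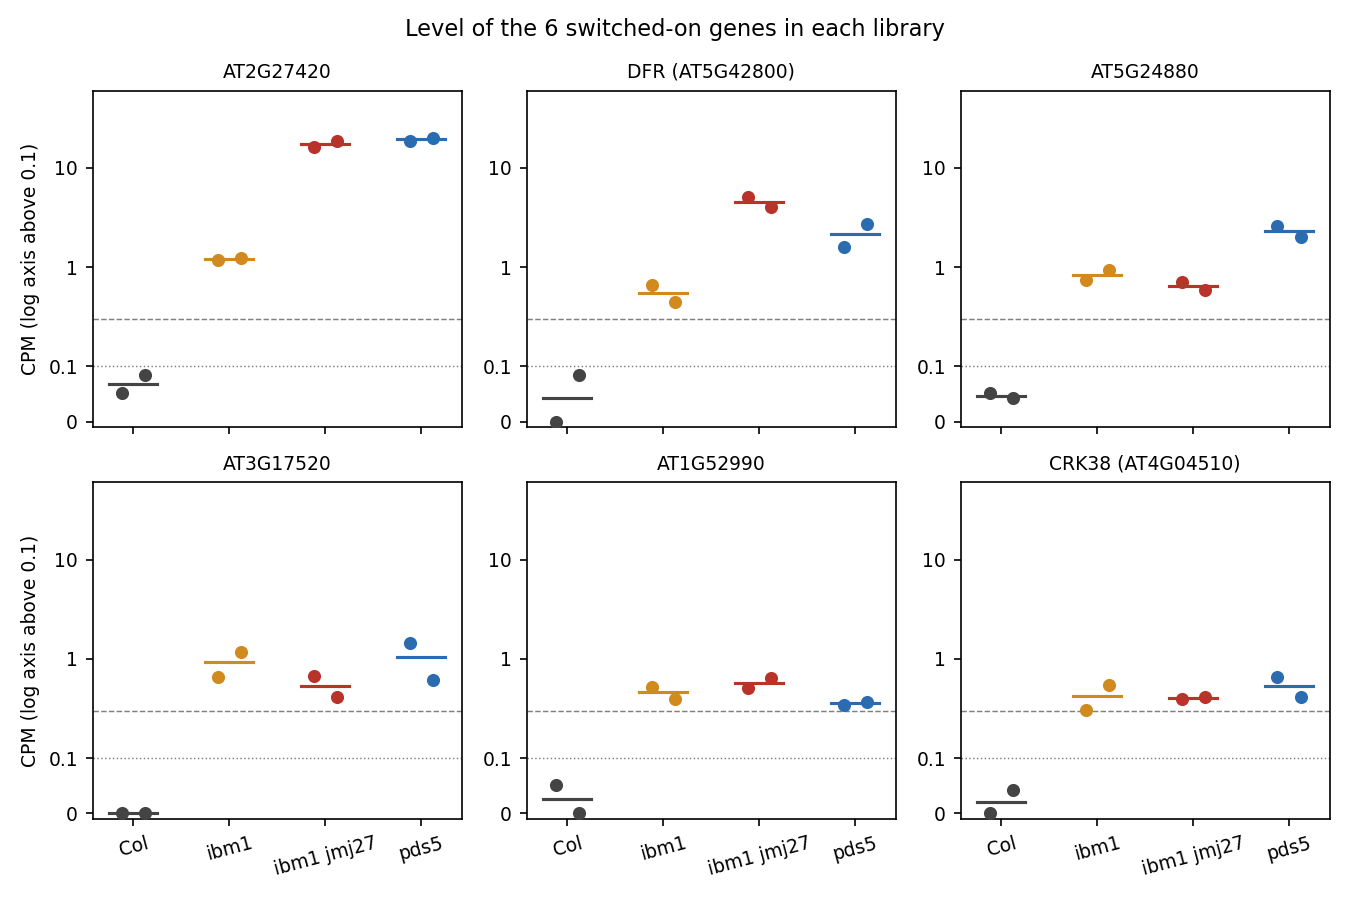
Level in CPM (vertical axis, linear below 0.1 and logarithmic above) of each switched-on gene in each library (points) with the mean per genotype (bars). The dotted line is the Col ceiling of 0.1 CPM and the dashed line the mutant floor of 0.3 CPM. AT2G27420 and DFR spread widely over the mutants, while CRK38 and AT1G52990 stay between 0.307 and 0.653 CPM in them.

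The members were next compared between the mutants, where the rule had set a floor but no difference. The edgeR quasi-likelihood test was fitted on all 8 libraries, adjusted over the 21548 genes tested, and called at an adjusted p under 0.05. All 6 members passed the filter on low counts. Of them, 2 were higher and 0 lower in ibm1 jmj27 than in ibm1, where 45.5% of all genes tested were called, 22.7% as higher and 22.8% as lower. In pds5 against ibm1, 3 were higher and 0 lower, beside 44.5% of all genes called, 22.9% as higher and 21.5% as lower. In ibm1 jmj27 against pds5, 1 was higher and 1 lower, beside 39.9%, with 19.1% higher and 20.7% lower. The members' shares, 2, 3 and 2 of 6, were thus near the background. The median log2 difference over the members was 0.12, 0.88 and -0.26 in these comparisons, and over all genes tested it was 0.00 in each.

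AT2G27420 and DFR were higher in both ibm1 jmj27 and pds5 than in ibm1. AT2G27420 differed from ibm1 by a log2 fold change of 3.85 ± 0.177 (SE) in ibm1 jmj27 (adjusted p = 1.65e-09) and by 3.98 ± 0.175 in pds5 (adjusted p = 1.29e-09). Between ibm1 jmj27 and pds5 it differed by -0.13 ± 0.123 (adjusted p = 0.443). Whether the low ibm1 level of this gene moved with LHY, which was also lowest in ibm1 among the mutants, was not tested.

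DFR differed in all 3 comparisons. It was higher by 3.04 ± 0.379 in ibm1 jmj27 than in ibm1 (adjusted p = 2.52e-05) and by 1.93 ± 0.405 in pds5 than in ibm1 (adjusted p = 0.00162). It was higher by 1.11 ± 0.304 in ibm1 jmj27 than in pds5 (adjusted p = 0.0105), a call that ended without pds5 replicate 1 (0.77, adjusted p = 0.121).

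AT5G24880 was higher in pds5 than in both other mutants. The difference was 1.43 ± 0.340 against ibm1 (adjusted p = 0.00379), which narrowly lost its call without ibm1 replicate 1 (1.28, adjusted p = 0.0507). Against pds5, ibm1 jmj27 stood at -1.79 ± 0.348 (adjusted p = 0.00119). Between ibm1 jmj27 and ibm1 it differed by -0.35 ± 0.399 (adjusted p = 0.498).

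AT3G17520, AT1G52990 and CRK38 were called in none of the 3 comparisons. Their differences ran from -0.91 ± 0.529 for AT3G17520 in ibm1 jmj27 against pds5 to 0.69 ± 0.536 for AT1G52990 in the same comparison. Their SE ran from 0.498 to 0.589, and even the difference of -0.91 went uncalled (adjusted p = 0.191). Differences of that size could thus be missed for them at this depth, and the lack of a call does not show equal levels.

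**Figure D2:**
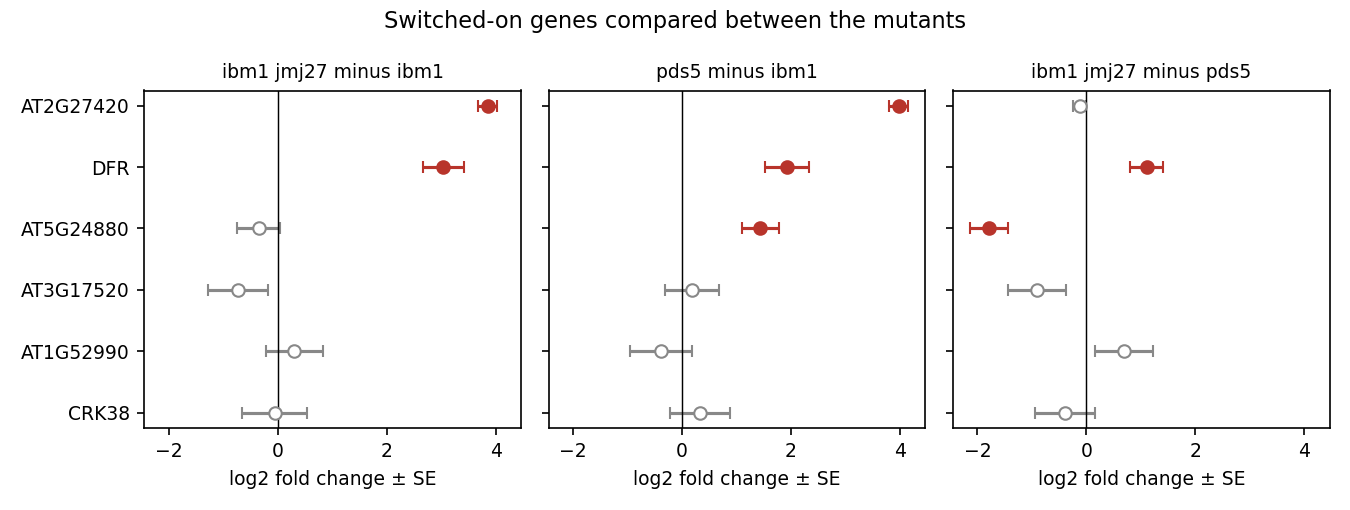
Log2 fold change with its SE (horizontal axis) of the 6 switched-on genes (rows) in each comparison between mutants. Filled red points passed at an adjusted p under 0.05. AT2G27420 stands at 3.85 and 3.98 against ibm1 and at -0.13 between ibm1 jmj27 and pds5.

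DFR was set beside the other genes of its pathway, in a textbook list of 26 genes that was added after the members were known. None of these genes chose the members, so they were tested against Col. Of 24 genes tested, 6 rose and 3 fell in ibm1, beside 31.0% of all genes called (16.5% higher, 14.5% lower). In ibm1 jmj27 16 rose and 1 fell, beside 50.5% (26.7% higher, 23.8% lower), and in pds5 16 rose and 1 fell, beside 49.0% (25.8% higher, 23.2% lower). The medians of the list were 0.20, 0.87 and 0.96 as log2 differences, while over all genes they were 0.02, 0.03 and 0.00. The count in ibm1 dropped from 9 to 5 with the DESeq2 test and without either Col replicate, to 3 without ibm1 replicate 1 and to 4 without ibm1 replicate 2.

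All 5 early enzymes and all 6 late enzyme and transport genes tested rose in ibm1 jmj27 and in pds5, the 2 mutants in which DFR was higher than in ibm1. In ibm1 2 early enzymes rose and 1 fell, and of the late genes 2 rose and 1 fell. CHI, chalcone isomerase, rose by 1.32 ± 0.0742 in ibm1 jmj27 and by 1.65 ± 0.0745 in pds5. LDOX, which acts directly after DFR, held 1.39 and 1.23 CPM in Col, 1.80 and 2.22 in ibm1, 8.99 and 8.74 in ibm1 jmj27, and 3.99 and 6.01 in pds5. Its 4 genotypes did not overlap and had the same order as those of DFR, and how many genes share this order was not counted. LDOX rose by 2.77 ± 0.243 in ibm1 jmj27 (adjusted p = 5.22e-07) and by 1.92 ± 0.253 in pds5 (adjusted p = 2.79e-05), while its difference in ibm1 was 0.62 ± 0.289 (adjusted p = 0.122). Like DFR it was higher in ibm1 jmj27 than in pds5, by 0.85 ± 0.198 (adjusted p = 0.00403), and this call too ended without pds5 replicate 1.

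Of the factors that switch late enzymes on, PAP1, TT8, GL3, TTG1 and TT2 were called against Col in no mutant, while PAP2 and EGL3 were. MYB113 and MYB114, also on the list, were low in every library. Mean CPM in Col, ibm1, ibm1 jmj27 and pds5 was 0.145, 0.137, 0.280 and 0.205 for MYB113. For MYB114 it was 0.188, 0.466, 0.0423 and 0.0614. EGL3, a bHLH factor of the complex, rose by 0.49 ± 0.0882 in ibm1 jmj27 (adjusted p = 0.000433) and by 0.27 ± 0.0886 in pds5 (adjusted p = 0.0199). Its pds5 call ended under the DESeq2 test and without either Col or either pds5 replicate. PAP2, a MYB activator with close relatives in tandem whose counts are uncertain, rose by 1.39 ± 0.322 in ibm1 jmj27 (adjusted p = 0.00271), and its difference in pds5 was -0.29 ± 0.361 (adjusted p = 0.528). In ibm1 PAP2 had 17 and 9 counts, or 0.746 and 0.444 CPM, against 18 and 43 counts, or 0.924 and 1.83 CPM, in Col. The part of PAP2 in the level of DFR was not tested. MYBL2, a repressor of late enzymes, had 9.72 ± 0.615 CPM in Col, 15.9 ± 1.70 in ibm1, 1.62 ± 0.0959 in pds5 and 4.24 ± 0.575 in ibm1 jmj27. It fell by 1.19 ± 0.162 in ibm1 jmj27 (adjusted p = 3.87e-05) and by 2.59 ± 0.185 in pds5 (adjusted p = 6.59e-08). In ibm1 it rose by 0.70 ± 0.146 (adjusted p = 0.00245), a call that ended without ibm1 replicate 2. Of 13 regulators tested, 5 rose and 1 fell in ibm1 jmj27, and likewise in pds5. Another regulator on the list, CPC, had mean CPM of 0.609, 0.661, 1.58 and 1.66 in Col, ibm1, ibm1 jmj27 and pds5. In that order MYB11 had 11.3, 13.4, 24.2 and 26.3, and MYB12 had 15.7, 20.6, 28.4 and 39.7. MYB111 had 39.6, 39.3, 37.5 and 69.1. All 9 clock genes measured were called in each mutant, and the part of clock state in DFR and its pathway was not tested.

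**Figure D3:**
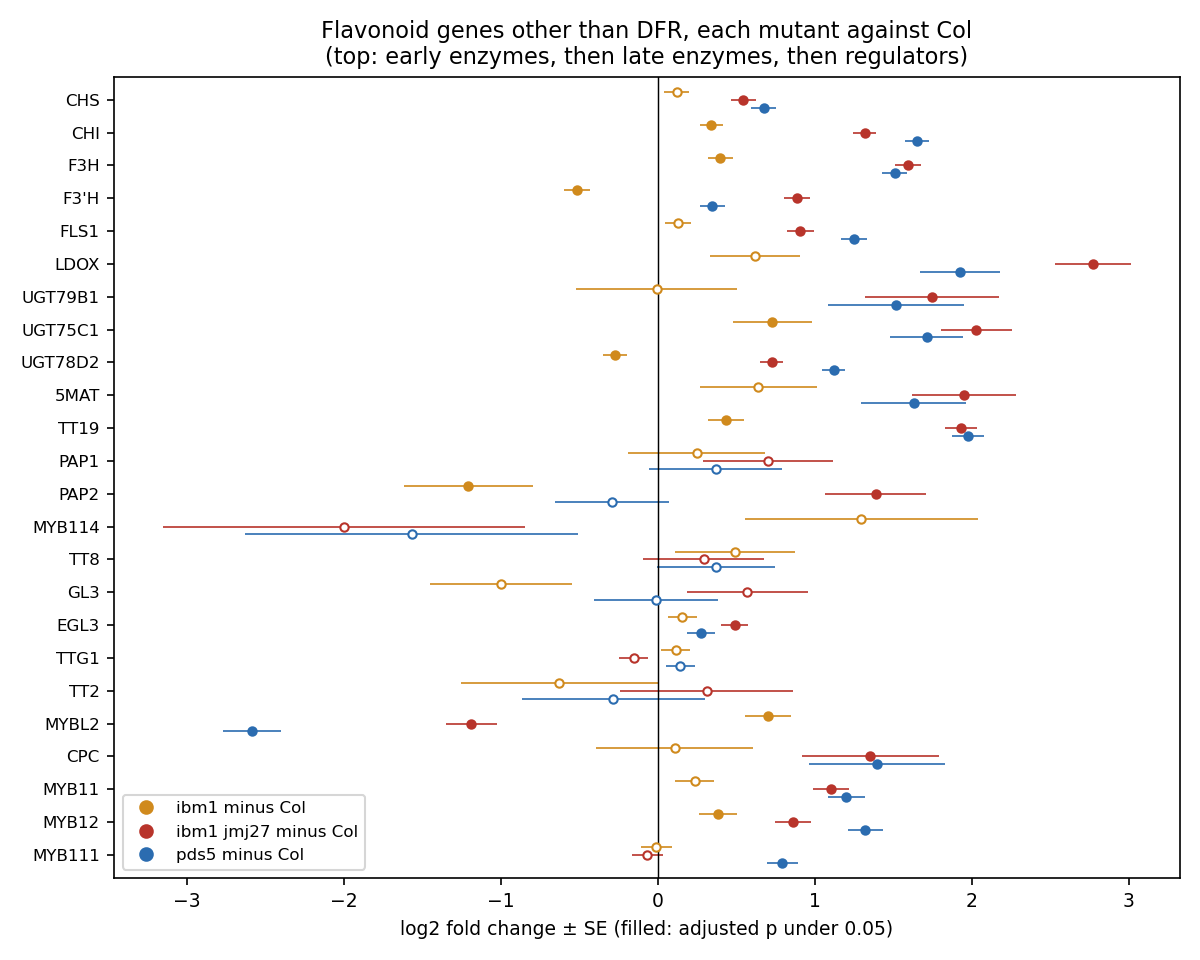
Log2 fold change against Col with its SE (horizontal axis) of 24 flavonoid genes other than DFR (rows) in each mutant, with filled points past the threshold. Early and late enzymes lie to the right of 0 in ibm1 jmj27 and pds5, and MYBL2 lies at -1.19 and -2.59.

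The family of CRK38 was described in the same way, with 37 further genes that the reference names as cysteine-rich receptor-like kinases. This list too was added after the members were known, and reads of similar kinases may have been shared or lost in counting. Of 31 genes tested, 8 rose and 2 fell in ibm1, beside 31.0% of all genes called (16.5% higher, 14.5% lower). In ibm1 jmj27 19 rose and 2 fell, beside 50.5% (26.7% higher, 23.8% lower). In pds5 19 rose and 3 fell, beside 49.0% (25.8% higher, 23.2% lower). The ibm1 calls in either direction were thus near the background. The family medians were 0.52, 1.02 and 0.92 as log2 differences, while over all genes they were 0.02, 0.03 and 0.00. Setting CRK12, which had 0 counts in Col, to its ratio against the floor of 3 Col counts left the family medians unchanged. That ratio still lay above the median in each mutant, so this swap could not have moved them. The count in ibm1 dropped from 10 to 6 without Col replicate 1.

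CRK38 lies between CRK37 and CRK39 in gene order, and both neighbours were low in Col and rose in the mutants other than ibm1. CRK37 had 0.435 ± 0.107 CPM in Col, 0.803 ± 0.229 in ibm1, 2.28 ± 0.0174 in pds5 and 1.67 ± 0.0901 in ibm1 jmj27. It rose by 1.92 ± 0.386 in ibm1 jmj27 (adjusted p = 0.000992) and by 2.35 ± 0.372 in pds5 (adjusted p = 0.000147), while in ibm1 it stood at 0.87 ± 0.432 (adjusted p = 0.143). CRK39, with 2 and 5 counts in Col and 24 and 23 in pds5, rose by 2.47 ± 0.607 in pds5 (adjusted p = 0.00404). In ibm1 jmj27 it stood at 1.97 ± 0.644 (adjusted p = 0.0206), a call that ended under the DESeq2 test and without either Col replicate or ibm1 jmj27 replicate 1. In pds5 against ibm1, CRK37 was higher by 1.48 ± 0.336 (adjusted p = 0.00286) and CRK39 by 2.28 ± 0.591 (adjusted p = 0.00661), the latter call ending without ibm1 replicate 1. CRK38 itself differed there by 0.33 ± 0.556 (adjusted p = 0.661). Whether CRK38 differed from its neighbours in this respect was not tested.

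CRK18 came close to the rule, with 2 and 3 counts in Col, or 0.103 and 0.127 CPM, and 1.38 to 2.96 CPM in the mutants. It was singled out after its values were seen, for this same difference, so no test of it is given. CRK12 had 0 counts in Col and 9 in ibm1. Set against the floor of 3 Col counts, its level was 6.94-fold in ibm1 jmj27 and 9.37-fold in pds5, with counting error in the mutants left out. Not every family member rose, and CRK29 fell by 1.13 ± 0.124 in ibm1 jmj27 and by 0.66 ± 0.119 in pds5.

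**Figure D4:**
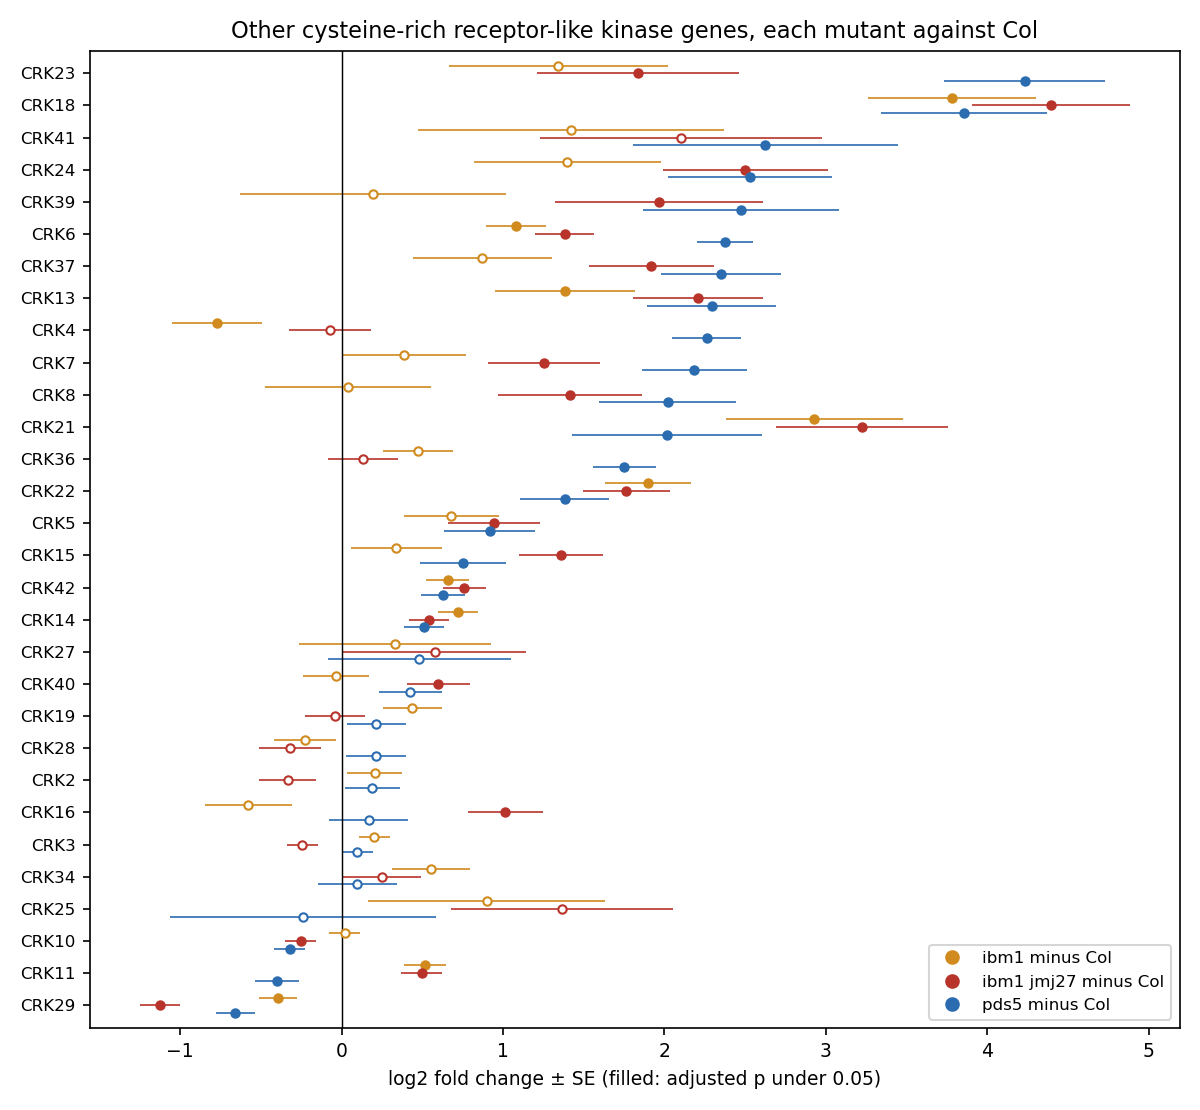
Log2 fold change against Col with its SE (horizontal axis) of 30 cysteine-rich receptor-like kinase genes other than CRK38 (rows) in each mutant, with filled points past the threshold. CRK12 is not drawn because it had 0 counts in Col. CRK37, next to CRK38, lies at 0.87, 1.92 and 2.35, and CRK29 lies below 0 in all 3 mutants.

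The neighbours of all members in gene order were compared with Col as well, since they took no part in the rule. Of 12 neighbours of the 6 members, 8 were tested. Among these are CRK37 and CRK39, which were also counted in the CRK family, so the 2 summaries are not separate. In ibm1 4 rose and 1 fell, in ibm1 jmj27 5 rose and 1 fell, and in pds5 6 rose and 0 fell, or 62.5%, 75.0% and 75.0% called beside 31.0%, 50.5% and 49.0% of all genes. With 8 genes these shares are coarse, and the count in ibm1 dropped from 5 to 3 without Col replicate 1 or ibm1 replicate 2 and to 2 without ibm1 replicate 1. The median log2 difference over the neighbours was 0.37, 0.62 and 0.66 in the same order, beside 0.02, 0.03 and 0.00 over all genes tested.

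On the 2 sides of DFR, the defensin-like gene LCR28 had 0 counts in all 8 libraries, and IPK1, an inositol phosphate kinase gene, rose by 0.64 ± 0.0951, 0.83 ± 0.0936 and 0.90 ± 0.0928 in ibm1, ibm1 jmj27 and pds5. Beside AT3G17520, the kinase gene CIPK1 rose by 1.41 ± 0.107 in pds5 (adjusted p = 1.78e-07), by 0.91 ± 0.108 in ibm1 jmj27 and by 0.37 ± 0.111 in ibm1. The ibm1 call of CIPK1 ended without Col replicate 1 and without either ibm1 replicate. On the other side AT3G17530 had 32 and 35 counts in Col, 15 and 16 in ibm1, 3 and 1 in ibm1 jmj27, and 33 and 26 in pds5. It fell by 4.12 ± 0.543 in ibm1 jmj27 (adjusted p = 2.78e-05) and by 1.11 ± 0.377 in ibm1 (adjusted p = 0.0391). In pds5 it stood at -0.43 ± 0.345 (adjusted p = 0.325). The gene next to a switched-on one was thus lower in ibm1 and in ibm1 jmj27. The 5 pollen markers were also lowest in ibm1 jmj27, and their part in the fall of AT3G17530 was not tested.

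Both neighbours of AT2G27420 were too low to be tested. AT2G27410 had 0 counts in Col and 0 to 8 in the mutant libraries, and AT2G27430 had 3 to 13 counts in any library. Beside AT5G24880, AT5G24879 had 2 counts in 1 pds5 library and 0 elsewhere. On the other side AT5G24890 rose by 0.39 in ibm1 and by 0.43 in pds5, and in ibm1 jmj27 it stood at -0.11 (adjusted p = 0.233). Beside AT1G52990, AtNug2 was called in no mutant and CKS, an enzyme gene of cell wall sugar supply, rose by 0.37, 0.42 and 0.35. Its ibm1 call ended without ibm1 replicate 1.

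The threshold was crossed by few genes, and several lay just outside it. Of 4439 genes with at most 0.1 CPM in both Col libraries, the 6 members were 0.135%. With each mutant taken alone, 40 genes were switched on in ibm1, 71 in pds5 and 110 in ibm1 jmj27, comparisons that share the Col libraries. NUDT24 had 0 and 0 CPM in Col, with 0.702 and 1.58 in ibm1, 0.860 and 0.911 in ibm1 jmj27, and 1.15 and 0.286 in pds5, so pds5 replicate 2 alone kept it out. The Col level of RLP21, a receptor-like protein gene, was 0 and 0.0425 CPM, and its mutant levels were 0.351 and 0.591 (ibm1), 0.704 and 1.46 (ibm1 jmj27), and 0.576 and 0.286 (pds5). It missed in the same library. NAS4, a nicotianamine synthase gene of iron handling, had 0.0513 and 0.0850 CPM in Col, with 0.746 and 0.394 in ibm1, 0.508 and 0.273 in ibm1 jmj27, and 1.46 and 1.68 in pds5, and missed in ibm1 jmj27 replicate 2. RLP6, AT1G57590 and AT3G19030 missed on the Col side, each with 2 counts in Col replicate 1, and are the first in table order of 5 genes tied at that Col level, with AT2G41800 and AT4G17660. RLP6, another receptor-like protein gene, had 0.103 and 0.0850 CPM in Col, with 0.526 and 0.641 in ibm1, 1.13 and 1.27 in ibm1 jmj27, and 1.04 and 0.695 in pds5. The Col level of AT1G57590 was 0.103 and 0.0850 CPM, and its mutant levels were 1.75 and 1.23 (ibm1), 0.469 and 0.728 (ibm1 jmj27), and 0.730 and 0.368 (pds5). AT3G19030 had 0.103 and 0 CPM in Col, with 1.32 and 0.690 in ibm1, 0.430 and 1.18 in ibm1 jmj27, and 2.77 and 2.90 in pds5. All 6 mutant libraries of these 3 genes lay above both Col libraries, which follows from how the genes were picked.

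For the switched-off direction, 20100 genes had at least 0.5 CPM in both Col libraries. Of these, 0 were at most 0.1 CPM in all 6 mutant libraries. The switched-off count rose to 1 with all thresholds halved. With each mutant taken alone, 11 genes were switched off in ibm1, 6 in pds5 and 196 in ibm1 jmj27. AT3G25240 had 1.33 and 0.722 CPM in Col, with 0 and 0.0493 in ibm1, 0 and 0.0455 in ibm1 jmj27, and 0.154 and 0.0818 in pds5, so 1 pds5 library kept it out. The Col level of MEE65 was 0.513 and 0.637 CPM, and its mutant levels were 0.175 and 0.148 (ibm1), 0.156 and 0.137 (ibm1 jmj27), and 0.115 and 0.0818 (pds5). AT2G40350 had 1.49 and 0.722 CPM in Col, with 0.219 and 0.0986 in ibm1, 0.0782 and 0.137 in ibm1 jmj27, and 0.154 and 0.0409 in pds5. These 3 genes were higher in both Col libraries than in any mutant library, which follows from how they were picked, but not low enough in the mutants. The Col level of AT4G13790 was 0.770 and 0.340 CPM, and its mutant levels were 0 and 0.0493 (ibm1), 0 and 0 (ibm1 jmj27), and 0 and 0 (pds5), and Col replicate 2 kept it out. AT4G04990 had 0.359 and 0.467 CPM in Col, with 0 and 0.0493 in ibm1, 0 and 0 in ibm1 jmj27, and 0.0768 and 0 in pds5. The Col level of AT2G01240 was 0.257 and 0.297 CPM, and its mutant levels were 0.0439 and 0.0493 (ibm1), 0 and 0.0455 (ibm1 jmj27), and 0.0768 and 0.0409 (pds5). The last 3 genes were under 0.1 CPM in every mutant library and missed on the Col side. The left-out AT1G36240 had 74.9 and 72.0 CPM in Col and at most 0.117 CPM in any mutant library, so it passed neither rule.

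**Figure D5:**
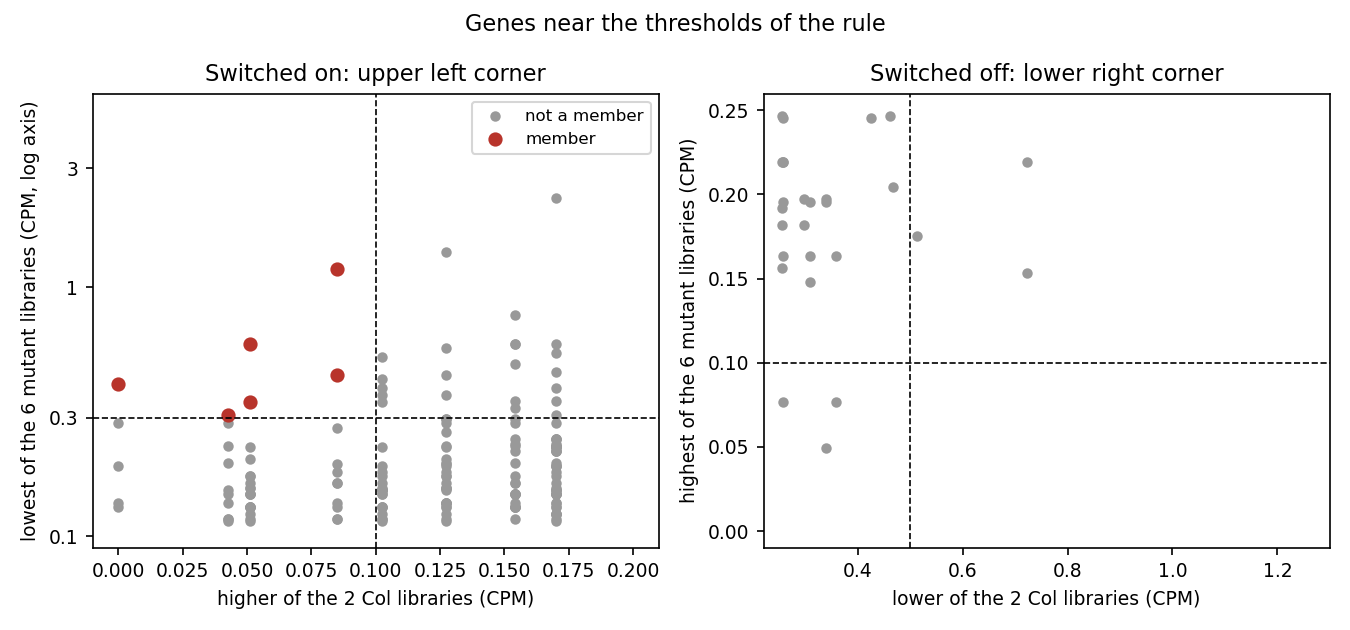
Left, the higher Col library against the lowest mutant library (CPM, vertical axis logarithmic) for 171 genes near the switched-on thresholds. Right, the lower Col library against the highest mutant library (CPM) for 27 genes near the switched-off thresholds. Dashed lines are the thresholds and red points the 6 members. The switched-off corner holds no gene.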

How the data were processed

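Polyadenylated RNA of closed buds was measured in 8 libraries, 2 for each of 4 genotypes. The 20 chromatin and input libraries of the series were not analysed here. The authors deposited raw counts per gene in 3 tables, each pairing Col with 1 mutant, and the Col columns were identical in all. The submitters' processing notes name HISAT2, Subread, DESeq2 and the TAIR10 build. Versions, strand setting and the treatment of shared reads are unstated in the sources used here, so counts of similar or antisense genes are uncertain. All columns were mapped.

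CPM was the count over the column sum. Comparisons were fitted in R 4.3.3 with edgeR 4.0.16 (TMM, filterByExpr, robust quasi-likelihood test, a mean per genotype, 4 residual degrees of freedom), with p-values adjusted by Benjamini-Hochberg over 21548 genes and calls made under 0.05. SE was derived from the log2 fold change and its F statistic, and can be too small at few counts. Alternatives used DESeq2 1.42.0, size factors, no filter, pairs alone, a replicate term and each library left out. The pipeline was tested on simulated data with the same spread in every genotype and no change set in genes as low as most members. That test therefore does not bear on those members or on the unequal spread of the genotypes.

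Genes were named by rule. Every member is given, with its value in every library, as are the 3 genes nearest outside each threshold, ties taken in table order. The neighbours in gene order are named too. The planned search for protein relatives was not made here. The flavonoid and CRK genes named were chosen after their values were seen. Names come from a RefSeq table of TAIR10.1, which matched 26719 of 27416 genes, and its order gave neighbours. The members and lists were chosen with earlier results of these data known.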

Additional observations from a re-analysis of the deposited data

How the results depend on the processing

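The switched-on count was 6 with TMM-scaled CPM, with the same 6 genes. It was 4 with all thresholds doubled, with 1 member among them (AT2G27420), and 8 with all halved, with 2 members among them (AT3G17520 and CRK38). Leaving out 1 library gave 7 to 30, with 30 without Col replicate 1, 20 without Col replicate 2 and 11 without pds5 replicate 2, so the list rests on both Col libraries. The switched-off count was 1 with halved thresholds (AT4G13790) and 0 to 1 with a library left out, namely AT4G13790 without Col replicate 2 and AT3G25240 without pds5 replicate 1. Members called in ibm1 jmj27 against pds5 ranged from 1 to 2 with a library left out, and neighbours called in ibm1 against Col from 2 to 5. All other counts of called members and neighbours stayed within 1.5 times under every alternative run. Of the log2 differences of members between mutants, none that was called changed sign. Uncalled ones reversed, with ranges over left-out libraries of -0.42 to 0.36 for CRK38 in ibm1 jmj27 against ibm1 (0.36 without ibm1 replicate 2), -0.040 to 0.78 for CRK38 in pds5 against ibm1 (-0.03 without ibm1 replicate 1, -0.040 without pds5 replicate 1) and -0.57 to 0.67 for AT3G17520 in pds5 against ibm1 (-0.19 without ibm1 replicate 1, -0.57 without pds5 replicate 1). The cause was not tested. CRK family calls in ibm1 jmj27 against ibm1 fell from 13 to between 4 and 7 with the DESeq2 test, the pair alone or either ibm1 replicate left out, and those in ibm1 jmj27 against pds5 from 12 to 6 without pds5 replicate 2. Replicates with the same number deviated together with r of 0.00 to 0.21, so the labels' numbers were not taken as pairs. With the replicate block, 2, 3 and 2 members were called in ibm1 jmj27 against ibm1, pds5 against ibm1 and ibm1 jmj27 against pds5, as without it. A level of 0.3 CPM rests on 6 to 8 counts, which limits the comparison of the mutants for CRK38, AT1G52990 and AT3G17520.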
